A study of Mus musculus with 3 samples.

Results

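Cortical thymic epithelial cells (cortical TECs) were taken from single-cell RNA libraries of aged mouse thymus as 152 of the 17677 barcodes called as cells. A barcode was a member when it had more than 1000 detected genes, under 20% mitochondrial UMIs (unique molecular identifiers, each standing for 1 captured RNA molecule), at least 2 UMIs of Prss16, at least 2 of Psmb11 and none of Aire, Pecam1 or Pdgfra. Prss16 encodes a thymus-specific serine protease and Psmb11 the beta5t subunit of the thymoproteasome. Levels of these genes in the members therefore describe the choice and were not tested. The members numbered 72 in the Foxn1Lin female library, 10 in the Foxn1Lin male library and 70 in the wild type male library. They were compared with the 2158 other kept barcodes that held at least 2 Epcam UMIs (545, 492 and 1121 in the same order), since Epcam marks thymic epithelium. Values for 3 libraries are given below in that order, and a level is in CPM, the UMIs of a gene summed over the barcodes of a class, per 1000000 UMIs of that class.

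All libraries were made from CD45- thymic stroma of untreated C57BL/6 mice aged 20 months, with 1 library per group. In the Foxn1Lin mice a Cre driven by Foxn1 switches on a tdTomato reporter in cells that have expressed Foxn1 at any time, so the label marks a history of Foxn1 and not its present level. The wild type mice carry no reporter. Each library pooled thymi, and sex, genotype and library cannot be told apart here. The protocol names female mice for every library although 2 libraries are labelled male, and the cell type field of the wild type library names PECAM1+ cells although its title gives CD45- stroma. Among kept barcodes 862 of 4891 in the wild type library had at least 2 Pecam1 and no Epcam UMIs, against 1998 of 6887 and 826 of 3178 in the Foxn1Lin libraries, so the wild type library did not hold PECAM1+ cells only.

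Cortical TECs form the outer thymic scaffold in which immature thymocytes commit to the T lineage and undergo positive selection. They provide Delta-like 4, chemokines and interleukin 7 to progenitors, and they cut the self peptides on which thymocytes are selected with a particular set of proteases, the thymoproteasome and Prss16, which are largely confined to the thymus, and cathepsin L, which many cell types hold. FOXN1 is the transcription factor that maintains this programme, and medullary TECs, the other main epithelial class, instead display tissue-restricted antigens under Aire and attract mature thymocytes through Ccl21a.

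FOXN1 recognises DNA around the letters GACGC. The 250 bases before the start site were read for the 6 cortical TEC markers used here (Prss16, Psmb11, Ly75, Enpep, Tbata and Ccl25) and for the 15 genes with the highest ranked fold change below, 19 genes in all since Tbata and Ccl25 belong to both. RefSeq windows on GRCm38.p6 were found for 16 of the 19, and 9 of the 16 held GACGC or its reverse complement GCGTC. Counted per gene in the same way, the motif was present in at least 1 window of this length in 24.8% of all 27025 genes, in 40.6% of tested genes, in 45.0% of genes called higher in cortical TECs and in 29.4% of genes called lower. Psmb11, Ccl25, Enpep and Cxcl12 are shown because they are the gate gene, markers and leading chemokine whose windows held the motif. Capitals mark the motif, the sequences read 5′ to 3′ towards the gene, and a match is a match of letters only. The windows are chr14:54625060-54625309 (+ strand) for Psmb11, chr8:4324960-4325209 (+ strand) for the first of the 2 Ccl25 starts, chr3:129332750-129332999 (- strand) for Enpep and chr6:117168285-117168534 (+ strand) for Cxcl12.
Psmb11: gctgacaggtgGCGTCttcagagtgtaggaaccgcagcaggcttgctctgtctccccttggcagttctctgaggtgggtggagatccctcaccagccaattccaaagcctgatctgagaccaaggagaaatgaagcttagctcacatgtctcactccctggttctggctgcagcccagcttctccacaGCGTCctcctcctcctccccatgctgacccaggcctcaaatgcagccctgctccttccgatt
Ccl25: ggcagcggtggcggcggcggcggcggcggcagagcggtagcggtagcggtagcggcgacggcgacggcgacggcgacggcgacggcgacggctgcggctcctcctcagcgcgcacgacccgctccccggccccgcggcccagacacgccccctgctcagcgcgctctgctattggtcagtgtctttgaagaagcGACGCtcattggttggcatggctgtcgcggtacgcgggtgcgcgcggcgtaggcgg
Enpep: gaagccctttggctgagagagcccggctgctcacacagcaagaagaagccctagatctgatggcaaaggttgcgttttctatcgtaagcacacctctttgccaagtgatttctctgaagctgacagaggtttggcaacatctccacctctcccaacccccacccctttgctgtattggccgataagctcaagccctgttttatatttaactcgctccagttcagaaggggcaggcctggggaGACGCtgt
Cxcl12: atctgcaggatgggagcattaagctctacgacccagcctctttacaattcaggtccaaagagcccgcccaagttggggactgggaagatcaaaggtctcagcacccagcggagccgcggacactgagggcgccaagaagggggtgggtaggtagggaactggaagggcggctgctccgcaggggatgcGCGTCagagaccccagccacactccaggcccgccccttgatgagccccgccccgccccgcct
In Psmb11 the motif lay 239 and 62 bases before the start, both on the opposite strand, in Cxcl12 it lay 62 bases before the start on the opposite strand, and in Ccl25 and Enpep it lay 56 and 8 bases before the start on the gene's own strand. The window of the second Ccl25 start, chr8:4349338-4349587, did not hold it, nor did those of Tbata, Ly75, Ctsl and Slc46a2. Windows end at RefSeq starts, which can differ from GENCODE starts. Those of Psmb11 and Ctsl lie inside the GENCODE gene spans given below.

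The 152 members held 1491798, 330713 and 2043174 UMIs, and a member had a median of 17428, 22706 and 25628 UMIs against 12408, 14280 and 18989 in the other Epcam barcodes. No barcode was a member in more than 1 library, although 8, 14 and 3 called barcodes were shared between the female and male Foxn1Lin, the female and wild type, and the male and wild type libraries, and 1 Foxn1Lin female or wild type member had its barcode called in the other library. Of the members, 54 of 72, 9 of 10 and 57 of 70 also had at least 2 Epcam UMIs. Members made up 11.7% of epithelial barcodes in the Foxn1Lin female library (72 of 617, 95% Clopper-Pearson interval 9.24% to 14.5%), 1.99% in the Foxn1Lin male library (10 of 502, 0.959% to 3.63%) and 5.88% in the wild type library (70 of 1191, 4.61% to 7.37%). These intervals cover counting error only and do not overlap. With others taken at 1 Epcam UMI, however, the Foxn1Lin female (6.28% to 9.91%) and wild type (3.95% to 6.33%) intervals did overlap. With 1 library per group the differences were not tested.

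The gate fixed Prss16 at 4133, 677 and 4102 CPM in the members, against 671, 91.3 and 242 CPM in the other Epcam barcodes, and Psmb11 at 994, 106 and 796 CPM against 194, 11.9 and 50.2 CPM. The 10 members of the Foxn1Lin male library stood apart from the others in both genes. All of their Psmb11 counts lay between 2 and 5 UMIs, while the median Psmb11 count was 12.5 UMIs in the Foxn1Lin female members and 14.5 in the wild type members. The 2 Foxn1Lin male members whose lower count was exactly 2 held 153816 of the 330713 UMIs of that library's members, and both were among the barcodes with the highest doublet scores. Without them the other 8 members summed to 1063 CPM of Prss16, 690 CPM of Ccl25 and 820 CPM of Tbata, in place of 677, 369 and 438 CPM. The cell type label was checked with the 4 markers that the gate did not use. A UMI of each of Ccl25, Ly75, Enpep and Tbata was present in 52.8% of Foxn1Lin female members (38 of 72), 40% of Foxn1Lin male members (4 of 10) and 72.9% of wild type members (51 of 70), compared with 10.3%, 2.24% and 5.08% of other Epcam barcodes and at most 0.232% of endothelial barcodes (at least 2 Pecam1 and no Epcam UMIs). Most Foxn1Lin female and wild type members thus carried the label's markers, while some members of each library lacked Ccl25 or Tbata. The 2 Foxn1Lin male members whose lower count of Prss16 and Psmb11 was exactly 2 had no UMI of Ccl25 or Tbata, and that library has the fewest members, so leading results are also given without it.

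At the edge of the gate, the 11 wild type members with a lower count of 2 summed to 459 CPM of Prss16 and 547 CPM of Ccl25, whereas the 59 members with a lower count of 3 or more summed to 4562 and 4382 CPM. The 24 wild type barcodes just outside, with a lower count of 1, summed to 386 CPM of Prss16 and 169 CPM of Ccl25. In the wild type library the members just inside thus lay nearer to those just outside than to the rest. In the Foxn1Lin female library, by contrast, Tbata was at 7013 CPM in the 7 members just inside, 7162 CPM in the 65 others and 303 CPM in the 21 barcodes just outside.

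**Figure D1:**
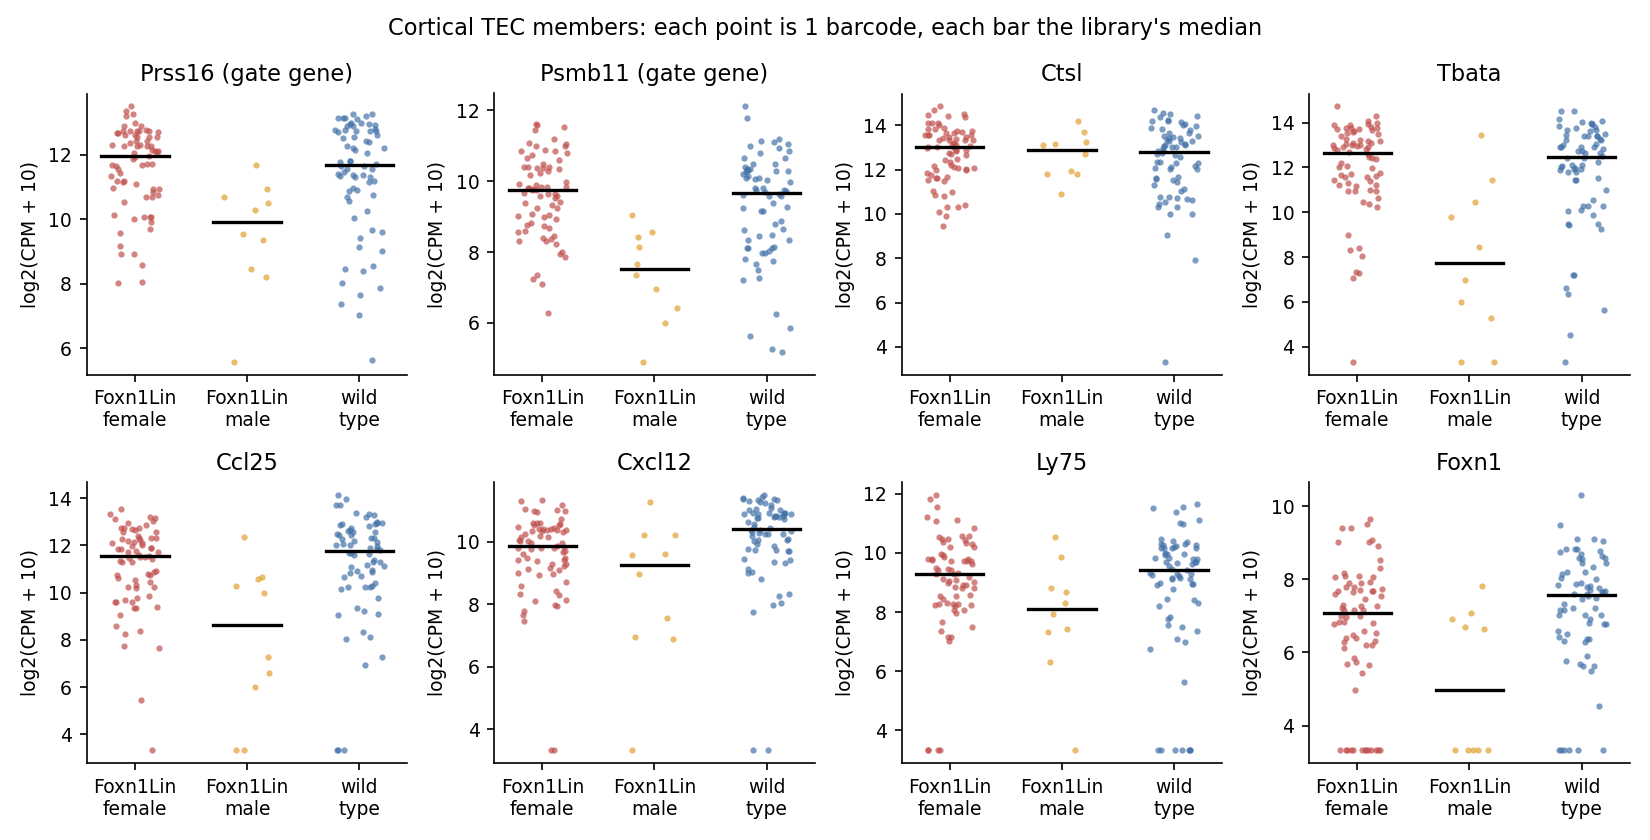
Levels of 8 genes in each of the 152 cortical TEC members, as log2(CPM + 10) on the vertical axis, with 1 point per barcode, grouped by library, and a bar at each library's median. Ctsl medians were 8347, 7704 and 7042 CPM, while Tbata and Ccl25 medians of the 10 Foxn1Lin male members (230 and 575 CPM) lay below those of the other libraries.

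Counts summed per library and class were compared by edgeR's quasi-likelihood test with library as a block, over 3 libraries and 14868 genes, and p values were adjusted by Benjamini-Hochberg over all of these genes. At an adjusted p under 0.05, 1441 genes (9.69% of those tested) were higher and 3116 (21.0%) lower in cortical TECs than in other Epcam barcodes. The median log2 fold change over all tested genes was -0.09. Of the higher genes 1308 were higher in each of the 3 libraries, and for 127 the Foxn1Lin male library alone went against the call. Without that library, Ccl21a lost its call among the genes of the lists and the ranked genes, and the others that were called kept theirs. Of 176 such genes, 85 lost their call with no library block, among them Ccl25, Tbata, Il7, Ccl19, Trp63, Psmb10, Tgfb1, Dll4 and Foxn1. The call was lost for 41 without the Foxn1Lin female library, 35 without the wild type library, 37 with a gate of 1 UMI and 29 with DESeq2. With barcodes thinned to 2000 UMIs 36 of the 150 still tested lost it. The losses named for single genes below are not a full list. All 7 cortical TEC markers that the gate did not use were higher in cortical TECs, with a median log2 fold change of 2.36.

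On GRCm38 (GENCODE vM21), the gate genes Prss16 and Psmb11 lie at chr13:22002173-22009742 (- strand) and chr14:54621433-54629556 (+ strand), and the markers Ctsl, Tbata and Ly75 at chr13:64359337-64370890 (- strand), chr10:61171954-61188841 (+ strand) and chr2:60292103-60383303 (- strand). Ctsl encodes cathepsin L, which trims class II-bound peptides in the cortex. It was at 9555, 6208 and 8935 CPM in members and 1853, 1729 and 1046 CPM in the other Epcam barcodes. The sums of members and others did not overlap, and the log2 fold change was 2.44 (SE 0.23, edgeR adjusted p = 1.51e-06), or 2.78 without the Foxn1Lin male library. Tbata, named for its association with thymus and brain, was at 7154, 438 and 5935 CPM in members and 1502, 185 and 490.5 CPM in others. It was higher in members of each library, although the Foxn1Lin male members lay below the Foxn1Lin female and wild type others (log2 fold change 2.40, SE 0.33, edgeR adjusted p = 5.78e-05, and 2.97 without the Foxn1Lin male library). Ly75, the endocytic receptor DEC-205, was at 707, 251 and 857 CPM against 193, 93.4 and 127 CPM, with no overlap (2.06, SE 0.23, edgeR adjusted p = 7.59e-06, and 2.37 without the Foxn1Lin male library). Enpep, the aminopeptidase detected as Ly51 on cortical TECs, was at 93.2, 33.3 and 116 CPM against 28.7, 10.0 and 25.04 CPM (1.95, SE 0.21, edgeR adjusted p = 5.12e-06, and 2.02 without it). Cd83, which stabilises MHC class II on cortical TECs, and the solute carrier Slc46a2 had log2 fold changes of 2.37 and 2.35.

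The other Epcam barcodes held 49, 4 and 38 barcodes that passed the Prss16 and Psmb11 minimums but had a UMI of Aire, Pecam1 or Pdgfra. These were 8.99%, 0.813% and 3.39% of the class, and they carried 87.1%, 41.5% and 64.0% of its Ccl25 UMIs. Without them the class was at 130, 89.8 and 130 CPM of Ccl25 in place of 806, 149 and 337 CPM. When the Aire, Pecam1 and Pdgfra limits were dropped from the gate, a choice made after the data were seen that gave 130, 14 and 112 members, some of them with fewer than 2 Epcam UMIs, the log2 fold change rose from 2.36 to 4.42 for Ccl25, from 2.40 to 4.13 for Tbata and from 2.44 to 3.11 for Ctsl. Other genes also moved under this choice, some of them farther than Ccl25. Fgf21 went from -5.57 to -2.47, Cd80 from -8.01 to -5.76 and H2-Ob from -4.13 to -2.83, each still called lower, and the thymocyte gene Rag1 went from 0.37 to 3.75 and became called.

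Of the 21 ligands and chemokines that act on thymocytes or their progenitors, 8 were higher, 6 were lower and 7 were not called (median log2 fold change 0.26), where 9.69% of all tested genes were higher and 21.0% lower. Ccl25 draws progenitors through CCR9. Its level was 3494, 369 and 3953 CPM in members and 806, 149 and 337 CPM in others (2.36, SE 0.32, edgeR adjusted p = 5.05e-05, and 2.88 without the Foxn1Lin male library). With no library block the Ccl25 (2.63) and Tbata (2.68) calls were lost. Among members it ranged from 0 to 11720 CPM with a median of 2954 in the Foxn1Lin female library, from 0 to 5211 with a median of 575 in the Foxn1Lin male library, and from 0 to 18010 with a median of 3440 in the wild type library. To compare shares of positive barcodes at equal depth, each barcode was thinned to 2000 UMIs. A Ccl25 UMI then remained in 93.1%, 40% and 91.0% of members, in 17.1%, 8.35% and 12.9% of others and in 5.61%, 2.21% and 3.91% of fibroblast barcodes (at least 2 Pdgfra and no Epcam UMIs), which should lack it. The unthinned shares were 98.6%, 80% and 95.7% of members and 39.6%, 27.6% and 36.4% of others, and median UMIs of the fibroblast barcodes were 7536, 9579 and 8371. The share in others exceeded that in fibroblasts in every library. Barcodes of 20 to 500 UMIs that were not called as cells still held Ccl25 at 346, 227 and 322 CPM, and the part of free RNA in the levels of others was not tested.

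Cxcl12, which retains early thymocytes in the cortex through CXCR4, was at 985, 432 and 1283 CPM in members and 285, 82.3 and 156 CPM in others. The sums of members and others did not overlap (2.41, SE 0.21, edgeR adjusted p = 7.77e-07, and 2.47 without the Foxn1Lin male library). Il7, the survival factor of early thymocytes, was at 115, 106 and 198 CPM against 59.4, 78.1 and 89.1 CPM, a smaller step that was called in the same direction (0.91, SE 0.19, edgeR adjusted p = 0.00185, and 1.11 without it). After thinning, an Il7 UMI remained in 16.7%, 40% and 25.4% of members and 11.4%, 15.7% and 14.2% of others. In the Ccl21a barcodes defined below the shares were 15.9%, 20.7% and 28.2%, near those of Foxn1Lin female and wild type members. The Notch ligand Jag2 and Wnt4, a Wnt ligand that sustains Foxn1, were also higher, by 1.50 and 1.47 on the log2 scale. Kitl, the stem cell factor, was higher by 0.69 and Tgfb1 by 0.61, and both calls were lost without the wild type library, the latter also without the Foxn1Lin female library. With others taken at 1 Epcam UMI the Kitl value was 0.29 and not called. Tgfb1 was also not called with DESeq2, with thinning, with a gate of 1 or 4 UMIs or with no library block (0.54). Its call was lost too with T-cell or Ptprc barcodes left out (0.62) and with members taken at 2 Epcam UMIs (0.56). The same held with others taken at 1 Epcam UMI (0.46) and with the Aire, Pecam1 and Pdgfra limits dropped (0.68). Dll4, the Notch ligand that commits progenitors to the T lineage, was at 25.5, 0 and 43.6 CPM against 14.8, 7.37 and 11.2 CPM. It was called higher (1.23, SE 0.38, edgeR adjusted p = 0.0225), but no Foxn1Lin male member held a UMI of it, and without the wild type library the log2 fold change was 0.37 and no longer called. The call was also lost with DESeq2 (0.72), with a gate of 1 UMI (0.90), with no library block (1.30) and with the Aire, Pecam1 and Pdgfra limits dropped (1.27). A Dll4 UMI was found in 25 of 72 Foxn1Lin female and 34 of 70 wild type members. Barcodes of 20 to 500 UMIs that were not called as cells held Dll4 at 27.7, 33.0 and 32.6 CPM. Member levels lay below these values in the Foxn1Lin libraries and above in the wild type library. After thinning, a Dll4 UMI remained in 8.33%, 0% and 11.9% of members and 2.75%, 1.02% and 1.97% of others. In endothelial barcodes the shares were 18.1%, 18.7% and 18.7%. The part of free RNA in the Dll4 levels was not tested.

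The 6 lower ligands were Ccl19, Ccl21a, Il15, Tgfb2, Tslp and Fgf21. The Il15 call (-0.64) was lost without the Foxn1Lin female (-0.78) or the wild type library (-0.70), with DESeq2, with thinning, with a gate of 4 UMIs, with the highest doublet scores left out (-0.46), with others taken at 1 Epcam UMI and with no library block. The Tslp call was lost without the Foxn1Lin female library and with no library block. Ccl19, a chemokine of the medulla, was at 215, 30.2 and 86.1 CPM against 360, 436 and 273 CPM (log2 fold change -1.70, edgeR adjusted p = 0.00173). Fgf21 was nearly absent from members, at 3.35, 0 and 0.489 CPM against 48.2, 108 and 95.2 CPM (-5.57, edgeR adjusted p = 4.97e-07, and -2.47 when the Aire, Pecam1 and Pdgfra limits were dropped). The log2 fold change of Ccl21a moved from -1.07 to -0.43 without the Foxn1Lin male library (edgeR adjusted p 0.02 and 0.0764), and its call was also lost with a gate of 1 UMI (-0.58), with others taken at 1 Epcam UMI (-0.84) and with no library block (-1.01). Ccl21a in members sat in few barcodes, since 47 of 72, 8 of 10 and 44 of 70 members held none and the top 3 members held 68.9%, 100% and 71.8% of its UMIs. Ccl19 and Ccl21a each have near-identical copies in the genome, so their levels are uncertain.

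Among 20 tested transcription factors of thymic epithelial identity, 4 were higher and 7 lower, where 9.69% of all tested genes were higher and 21.0% lower. Foxn1 itself was at 146, 48.4 and 186 CPM in members and 77.4, 54.0 and 65.1 CPM in others. It was called higher (0.95, SE 0.24, edgeR adjusted p = 0.00774), with the Foxn1Lin male library at the opposite side, and without that library the log2 fold change was 1.28 (edgeR adjusted p = 5.42e-06). The call was lost without the wild type library (0.53), with DESeq2 (0.85), with a gate of 1 UMI (0.79), with no library block (1.03) and with the Aire, Pecam1 and Pdgfra limits dropped (0.95). A Foxn1 UMI was found in 59 of 72, 5 of 10 and 64 of 70 members. After thinning, the shares were 27.8%, 30% and 20.9% of members and 10.3%, 8.35% and 10.0% of others, against at most 0.210% of fibroblast barcodes. Pax1, a paired-box factor needed for cortical TEC development, had the largest increase of the list, at 589, 381 and 743 CPM against 166, 142 and 159 CPM (1.85, SE 0.19, edgeR adjusted p = 3.26e-06, and 2.08 without the Foxn1Lin male library). Trp63, the p63 factor of basal epithelia, was higher by 0.70, a call lost with thinning (0.43) and with no library block (0.69). The lower factors included Spib (-5.41), Fezf2 (-2.86), Ehf (-2.02), Elf3 (-1.40), Pou2f3 (-0.90) and Relb (-0.89), which include regulators of medullary and tuft-like TECs. The call of Pou2f3 was lost without the Foxn1Lin female or the wild type library, with DESeq2, with thinning, with a gate of 4 UMIs, with others taken at 1 Epcam UMI and with no library block, that of Elf3 with no library block and that of Relb with thinning. Pax9, Eya1 and Hoxa3, factors of the thymic primordium, were not called, with log2 fold changes of 0.11, 0.12 and 0.40.

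The cortical form of antigen processing was compared through 21 genes of the proteasome and MHC class I pathway and 20 genes of MHC class II presentation and lysosomal proteolysis. In the first list 4 genes were higher and 4 lower (median log2 fold change -0.13), of which the lower count is near the 21.0% of all tested genes. Psmb9, the beta1i proteasome subunit, was at 561, 221 and 536 CPM against 185, 152 and 182 CPM (1.28, SE 0.22, edgeR adjusted p = 3.58e-04, and 1.63 without the Foxn1Lin male library), and members and others did not overlap. Psmb10, the beta2i proteasome subunit, was at 912, 181 and 579 CPM against 376, 206 and 195 CPM. It was called higher (0.98, SE 0.27, edgeR adjusted p = 0.0118, and 1.47 without the Foxn1Lin male library) although it lay lower in the Foxn1Lin male members than in the others of that library. Psmb8, which occupies the place of Psmb11 in immunoproteasomes, was at 290, 106 and 197 CPM against 277, 250 and 189 CPM and was not called (-0.26). Psmb5, the constitutive subunit of the same place, was higher by 0.62 and Tap2, a subunit of the peptide transporter, by 0.52. Both calls were lost without the Foxn1Lin female library, with thinning and with a gate of 1 UMI. They were also lost with the Aire, Pecam1 and Pdgfra limits dropped (0.62 and 0.53), and that of Tap2 without the wild type library.

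The proteasome activator moved the other way. Psme1, its PA28 alpha subunit, was at 75.1, 66.5 and 67.5 CPM in members and 265, 252 and 239 CPM in others, with no overlap (-1.83, SE 0.17, edgeR adjusted p = 1.51e-06, and -1.77 without the Foxn1Lin male library). Its partner Psme2 was lower by 0.83 on the log2 scale. The chaperones Calr and Canx were lower by 0.52 and 0.44, calls that were lost without the Foxn1Lin female or the wild type library. The Canx call was also lost with the Aire, Pecam1 and Pdgfra limits dropped (-0.38). The class I genes H2-K1, H2-D1 and B2m were not called (-0.19, -0.23 and -0.49).

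The class II list held 3 higher and 5 lower genes of 20 (median -0.14), near the shares over all tested genes, and they divided the lysosomal proteases. Besides Ctsl, the peptide exchange factor H2-DMa and the lysosomal membrane protein Lamp2 were higher. H2-DMa was at 281, 218 and 284 CPM against 144, 132 and 127 CPM (0.97, edgeR adjusted p = 4.58e-04). Lamp2 was at 1020, 819 and 858 CPM against 445, 403 and 405 CPM (1.11, edgeR adjusted p = 9.79e-05). The cathepsins Ctss, Ctsh and Ctsz were lower. Ctss, the main class II protease of medullary TECs and dendritic cells, was at 17.4, 0 and 4.41 CPM against 78.3, 71.1 and 68.1 CPM (-3.05, edgeR adjusted p = 1.98e-05, and -2.82 without the Foxn1Lin male library). Ctsh was at 12.7, 9.07 and 25.5 CPM against 186, 202 and 152 CPM (-3.27), and Ctsz at 26.8, 18.1 and 10.3 CPM against 213, 147 and 131 CPM (-3.22). H2-Ob, an inhibitor of peptide exchange, and the thiol reductase Ifi30 were lower as well (-4.13 and -0.95). The class II genes themselves, H2-Aa and the invariant chain Cd74, were not called (-0.09 and 0.03).

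**Figure D2:**
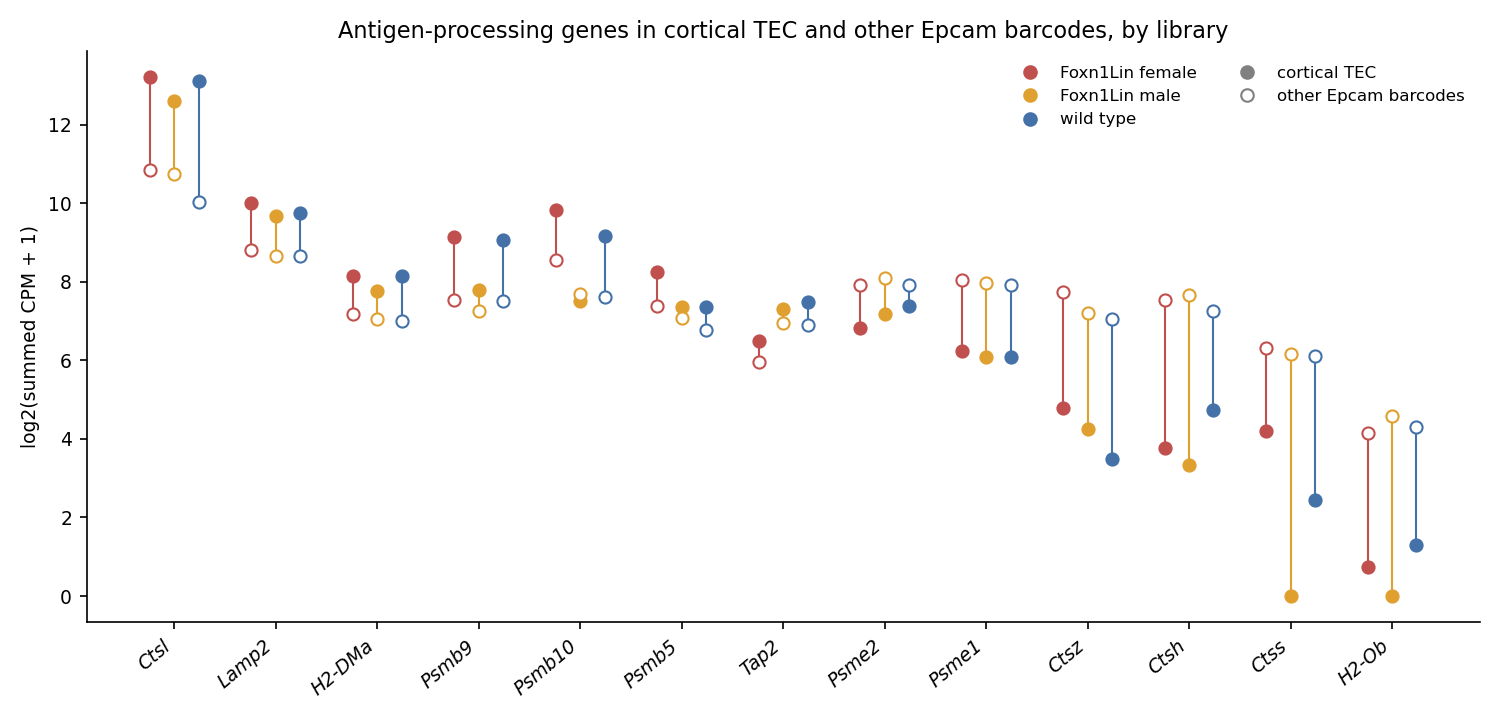
Summed levels of 13 antigen-processing genes as log2(CPM + 1), with filled points for cortical TECs and open points for other Epcam barcodes, joined by a line for each of the 3 libraries. Ctsl, Lamp2, H2-DMa and Psmb9 lie higher in cortical TECs in each library and Psme1, Ctsz, Ctsh and Ctss lower, while Psmb10 is reversed in the Foxn1Lin male library (181 against 206 CPM).

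Macroautophagy feeds cytosolic antigens to class II compartments in TECs, and 5 of its 22 genes were higher and 0 lower (median 0.01), against 9.69% and 21.0% of all tested genes. At an unadjusted p under 0.05 the count of lower genes was 1 by edgeR, and DESeq2 called 0 of them lower. The higher genes were the LC3 and GABARAP family members Map1lc3a, Map1lc3b, Gabarap and Gabarapl1, which coat autophagosomes, and the initiating kinase Ulk1. The calls of Map1lc3a, Gabarap and Ulk1 were lost without the Foxn1Lin female library, and those of Map1lc3a and Gabarap also without the wild type library. Map1lc3b was at 444, 305 and 325 CPM against 233, 192 and 152 CPM (0.91, edgeR adjusted p = 7.21e-04) and Gabarapl1 at 135, 75.6 and 88.1 CPM against 73.2, 42.8 and 38.6 CPM (edgeR adjusted p = 6.61e-04). Genes of the core conjugation machinery such as Atg5 and Atg7 were not called (0.22 and -0.29).

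Of 10 keratins 2 were higher, 4 were lower and 4 were not called (median -0.17), where 9.69% of all tested genes were higher and 21.0% lower. The simple-epithelium pair Krt8 and Krt18 was higher, Krt18 at 5778, 3492 and 3685 CPM against 2145, 1980 and 1354 CPM (1.23, SE 0.19, edgeR adjusted p = 1.55e-04) and Krt8 by 0.71, a call lost without the Foxn1Lin female library. Krt14, Krt15, Krt19 and Krt23 were lower (-1.08, -3.22, -0.89 and -3.20). Krt5, the basal keratin of medullary TECs, was at 358, 160 and 338 CPM against 223, 381 and 370 CPM and was not called (-0.15), and 35 of 72, 2 of 10 and 26 of 70 members held none of it.

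Of 21 genes of medullary TECs and their maturation, 17 were lower and 1 was higher (median -1.80), against 21.0% and 9.69% of all tested genes. The costimulatory ligand Cd80 was at 0, 3.02 and 0.489 CPM, which is 2 UMIs in all, against 149, 156 and 134 CPM. Hdc, the histamine-forming enzyme, was at 3.35, 0 and 3.43 CPM against 155, 132 and 119 CPM (-5.42, edgeR adjusted p = 1.77e-08). Tnfrsf11a, the receptor RANK through which medullary TECs mature, was at 9.38, 6.05 and 18.1 CPM against 168, 172 and 212 CPM (-3.87, edgeR adjusted p = 2.95e-08). The exception was Ltbr, the lymphotoxin beta receptor, which was higher by 0.90 with a call that was lost without the Foxn1Lin female or the wild type library. Barcodes with Aire, which the gate kept out of the members, were 211 of 545, 124 of 492 and 382 of 1121 of the others.

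Of 22 cell cycle genes, 8 were lower, 14 were not called and 0 were higher (median -0.88), where 21.0% of all tested genes were lower, and 0 were higher at an unadjusted edgeR p under 0.05 or by DESeq2. Top2a, a mitotic topoisomerase, was at 13.4, 0 and 12.7 CPM against 72.3, 50.0 and 81.4 CPM (-2.68, edgeR adjusted p = 8.17e-06) and Mki67 was lower by 1.44 on the log2 scale. With the Aire, Pecam1 and Pdgfra limits dropped, Top2a (-1.28) and Mki67 (-0.51) were not called. The arrest genes Cdkn2a and Cdkn2b were lower too (-2.05 and -2.75), although all 35 Cdkn2a UMIs of the members came from 1 wild type barcode. Ccnd1 and Cdkn1a were not called (-0.37 and -0.25).

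The list of antioxidant enzymes had 10 higher and 5 lower genes of 22 (median 0.40), of which the lower count is near the 21.0% of all tested genes. Nqo1, a quinone reductase, was at 133, 90.7 and 150 CPM against 34.2, 17.1 and 22.2 CPM, with no overlap (2.39, SE 0.20, edgeR adjusted p = 4.96e-07). Prdx5, a peroxiredoxin, was higher by 1.08 and Gclm, the modifier subunit of glutathione synthesis, by 0.82, a call lost without the Foxn1Lin female library. The catalytic subunit Gclc was lower by 1.22, so the 2 subunits of that enzyme differed in direction, and the peroxidase Gpx1 was lower by 0.82. Catalase (Cat) was at 24.8, 24.2 and 24.96 CPM against 34.5, 29.3 and 38.5 CPM and was not called (-0.49, edgeR adjusted p = 0.117).

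Receptors for epithelial growth factors gave 4 higher and 7 lower of 28 tested (median -0.04), near the 9.69% and 21.0% of all tested genes. Tgfbr2 was higher by 0.92 and Igf1r by 0.75, while the hepatocyte growth factor receptor Met was lower by 1.55, and the calls of Igf1r and Met were lost without the wild type library. The receptors of the FGF and BMP regeneration signals Fgfr2, Bmpr1a and Bmpr2 were not called (0.29, 0.01 and 0.16). Of 18 genes given for age-associated TECs and for epithelial or mesenchymal state, 2 were higher, near the 9.69% of all tested genes, and 12 were lower, against 21.0% (median -1.06). The higher ones were Krt8 and Snai2, a repressor linked to mesenchymal change, at 41.6, 106 and 41.1 CPM against 20.1, 32.1 and 18.6 CPM (1.28, edgeR adjusted p = 2.22e-04). Cldn3, Plet1 and Vim were lower (-1.80, -1.62 and -2.02). Zeb1 was lower by 0.77 with the gate as set and had a log2 fold change of 0.28 when the Aire, Pecam1 and Pdgfra limits were dropped.

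**Figure D3:**
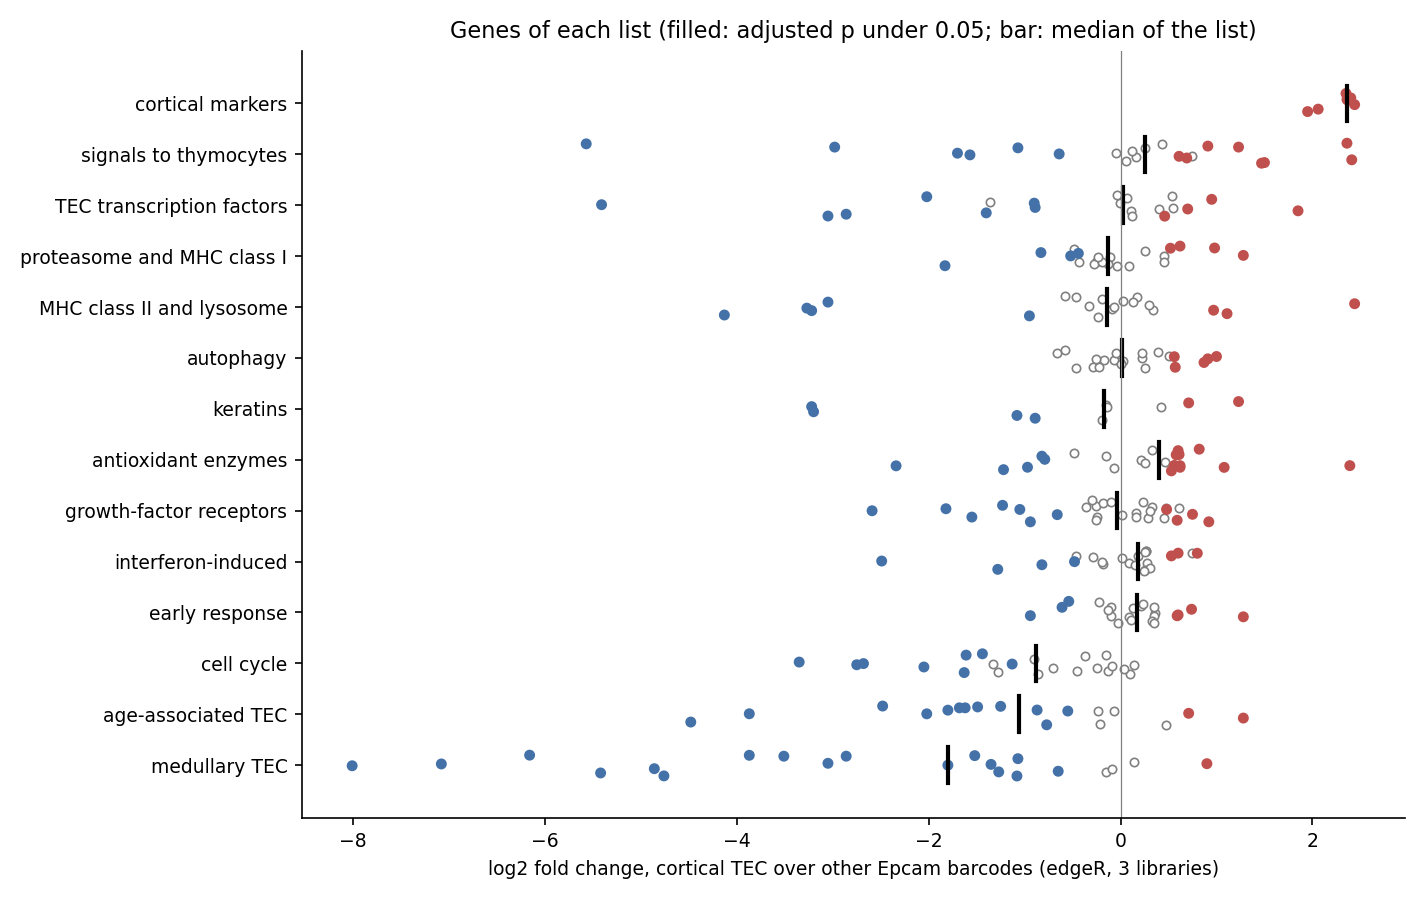
Log2 fold changes of the genes in 14 lists, cortical TECs over other Epcam barcodes, from edgeR over 3 libraries, with filled points for genes with an adjusted p under 0.05 (red higher, blue lower), open points for the others and a bar at each list's median. The 7 cortical markers lie between 1.95 and 2.44, and 17 of 21 medullary genes lie below 0 and are filled.

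Interferon response genes gave 3 higher and 4 lower of 23, and immediate early and heat shock genes 4 higher and 3 lower of 22, where 9.69% of all tested genes were higher and 21.0% lower. Among the latter, Dnajb1 was at 664, 723 and 369 CPM against 291, 191 and 216 CPM (1.28, edgeR adjusted p = 1.25e-04), while Fos and Jun were not called (0.09 and 0.36).

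The 15 highest ranked genes, several of them already described, were Isg20, Kcnk2, Diras2, Synm, Ctsl, Cxcl12, Tbata, Nqo1, Cd83, Pltp, Pithd1, Ccl25, Slc46a2, Ndrg3 and Cdh4, with log2 fold changes from 2.63 down to 2.31. Isg20, an interferon-inducible exonuclease, was at 881, 221 and 536 CPM against 187, 44.8 and 55.4 CPM (2.63, SE 0.21, edgeR adjusted p = 3.68e-07). Kcnk2, a potassium channel, was at 179, 151 and 216 CPM against 36.7, 26.7 and 28.4 CPM (2.59, SE 0.19, edgeR adjusted p = 1.11e-07), and the 3 sums of members lay above the 3 sums of others. Pltp, the phospholipid transfer protein, was at 994, 547 and 789 CPM against 250, 113 and 111 CPM (2.37, edgeR adjusted p = 2.73e-07). The intermediate filament gene Synm and the cadherin Cdh4 were higher by 2.45 and 2.31.

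The 15 lowest ranked genes included Skint9, Skint2, Il13, Tafa1, Grid1, Calcb, Syn2, Thsd7b, Csn2, Cd80, Gm29461, Spock3, Gm10165 and Syt1. They include synaptic genes (Grid1, Syn2 and Syt1), a milk casein (Csn2) and a cytokine (Il13). Syt1, the synaptic calcium sensor, was at 4.69, 0 and 6.36 CPM against 854, 998 and 1019 CPM (-7.55, SE 0.30, edgeR adjusted p = 1.29e-09), and Csn2, a milk casein, at 2.01, 0 and 0.979 CPM against 260, 547 and 370 CPM (-8.01). Skint9, Skint2 and Il13 had no UMI in any member, and against the limit that 3 counts over all members set they were at least 107-fold, 108-fold and 73.9-fold lower. Of the 3116 lower genes, 423 were at 0 in the members of all 3 libraries.

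A pair of medullary classes was then set against the same members, so the 3 comparisons share the member sums. Barcodes with Aire (211, 124 and 382, each with at least 2 Epcam UMIs) stand for mature medullary TECs, and barcodes with at least 10 Ccl21a UMIs and no Aire (63, 87 and 142) for Ccl21a-expressing medullary TECs. Against Aire barcodes 1856 of 13225 tested genes (14.0%) were higher and 2955 (22.3%) lower, and against Ccl21a barcodes 441 of 10502 (4.20%) and 667 (6.35%). With 1 library left out, the counts against Ccl21a barcodes ran from 135 to 700 higher and from 271 to 880 lower. All 7 cortical markers were called higher against both classes. Ctsl had a log2 fold change of 4.04 against Aire barcodes (edgeR adjusted p = 1.66e-04) and 1.98 against Ccl21a barcodes (edgeR adjusted p = 0.0129). Cxcl12 had 4.10 and 2.39, and Pax1 3.09 and 1.47, both called.

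Foxn1 was not called against either class (0.25, edgeR adjusted p = 0.606, and 1.17, edgeR adjusted p = 0.0657). Its level was 102, 97.3 and 105 CPM in Aire barcodes and 65.5, 50.5 and 46.8 CPM in Ccl21a barcodes. Dll4 was not called against Aire barcodes (0.55, edgeR adjusted p = 0.456) and was higher against Ccl21a barcodes (2.36, edgeR adjusted p = 0.035). Krt5 was lower against Ccl21a barcodes (-2.04, edgeR adjusted p = 0.00508) and not called against Aire barcodes (0.71, edgeR adjusted p = 0.213). Ctsh, which was lower against Aire barcodes (-4.01), was not called against Ccl21a barcodes (-1.49, edgeR adjusted p = 0.0568).

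List counts against the medullary classes are read beside the shares over all tested genes, which were 14.0% higher and 22.3% lower against Aire barcodes but 4.20% and 6.35% against Ccl21a barcodes, so that a count of 0 in a list lies near the latter. Of the interferon genes 13 of 23 were higher and 2 lower against Aire barcodes, and 0 higher and 7 lower against Ccl21a barcodes. Of the immediate early and heat shock genes 15 of 22 were higher and 0 lower against Aire barcodes, and 0 higher and 3 lower against Ccl21a barcodes. Of the growth factor receptors 12 of 27 were higher and 2 lower against Aire barcodes, Egfr by 1.47 and Tgfbr2 by 2.18 among the higher, and 0 of 26 were higher and 4 lower against Ccl21a barcodes. The cell cycle list had 13 of 21 lower against Aire barcodes and 0 of 15 called against Ccl21a barcodes. At an unadjusted edgeR p under 0.05 the counts of 0 became 2 for early genes lower against Aire barcodes and, against Ccl21a barcodes, 2 for interferon, 1 for early, 3 for receptor and 0 for cell cycle genes higher and 1 for cell cycle genes lower. DESeq2 called 1 early gene lower against Aire barcodes and 1 interferon gene higher against Ccl21a barcodes, and 0 in the others. The difference between the comparisons was not tested.

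Markers of other cell types were summed in the members. The gate kept out barcodes with Pecam1 or Pdgfra, and the same genes chose the endothelial and fibroblast barcodes. Low sums of endothelial and fibroblast markers are therefore partly set by the choice and do not test purity. The 10 endothelial markers summed to 86.5, 12.1 and 18.6 CPM in members, against 8604, 8975 and 8714 CPM in endothelial barcodes, and the 10 fibroblast markers to 765, 1890 and 497 CPM, against 25132, 24693 and 21890 CPM in fibroblast barcodes. In the Foxn1Lin male members 6 of the 10 fibroblast markers were at 0, among them Col1a1, Col1a2 and Col3a1, and Gsn, which many cell types express, made up 1766 CPM of the sum. The 22 thymocyte markers summed to 1040, 6.05 and 388 CPM in members and 837, 123 and 365 CPM in others, and 20 of the 22 were at 0 in the Foxn1Lin male members. Cd3d, a T-cell receptor complex subunit, was the 1 gene of that list called higher, at 62.3, 0 and 18.1 CPM against 30.0, 1.98 and 11.9 CPM (0.85, edgeR adjusted p = 0.0327), with UMIs in 24 of 72 and 8 of 70 members of the Foxn1Lin female and wild type libraries. That call was lost without either of these libraries, with DESeq2, with thinning, with a gate of 1 UMI and with no library block. The 14 markers of B, myeloid and red cells summed to 2545, 9.07 and 86.6 CPM in members, and in the Foxn1Lin female library 3 members held 96.1% of the Ighm UMIs. With all barcodes that held T-cell or Ptprc UMIs left out (33, 0 and 11 members), 1162 genes were higher and 2708 lower, and the part of lymphoid RNA in single calls was not tested.

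The barcodes that met both minimums but held Pecam1 were examined for the markers that Pecam1 stands for. Of the 256 kept barcodes with at least 2 UMIs of Prss16 and of Psmb11, 75 held Pecam1 (43, 2 and 30), 26 held Pdgfra and 20 held Aire. The 30 wild type barcodes with Pecam1 had a median of 50222 UMIs against 25628 in members, and 13 of them held exactly 1 Pecam1 UMI. Their levels of Prss16 (3350 CPM) and Ccl25 (3607 CPM) were close to those of members (4102 and 3953 CPM). The endothelial genes Cdh5 and Flt1 were at 2.76 and 9.67 CPM there and 0.979 and 3.43 CPM in members, whereas the thymocyte genes Cd3d, Rag1 and Satb1 were at 168, 126 and 569 CPM against 18.1, 16.2 and 47.5 CPM. The Pecam1 limit in the wild type library thus took out deep barcodes with high thymocyte and low endothelial transcripts. In the Foxn1Lin female library, where the 43 barcodes had a median of 30954 UMIs, Cdh5 was at 39.7 against 4.02 CPM, Flt1 at 80.1 against 9.38 CPM and Satb1 at 413 against 103 CPM. With 1 library per group these values are descriptions.

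**Figure D4:**
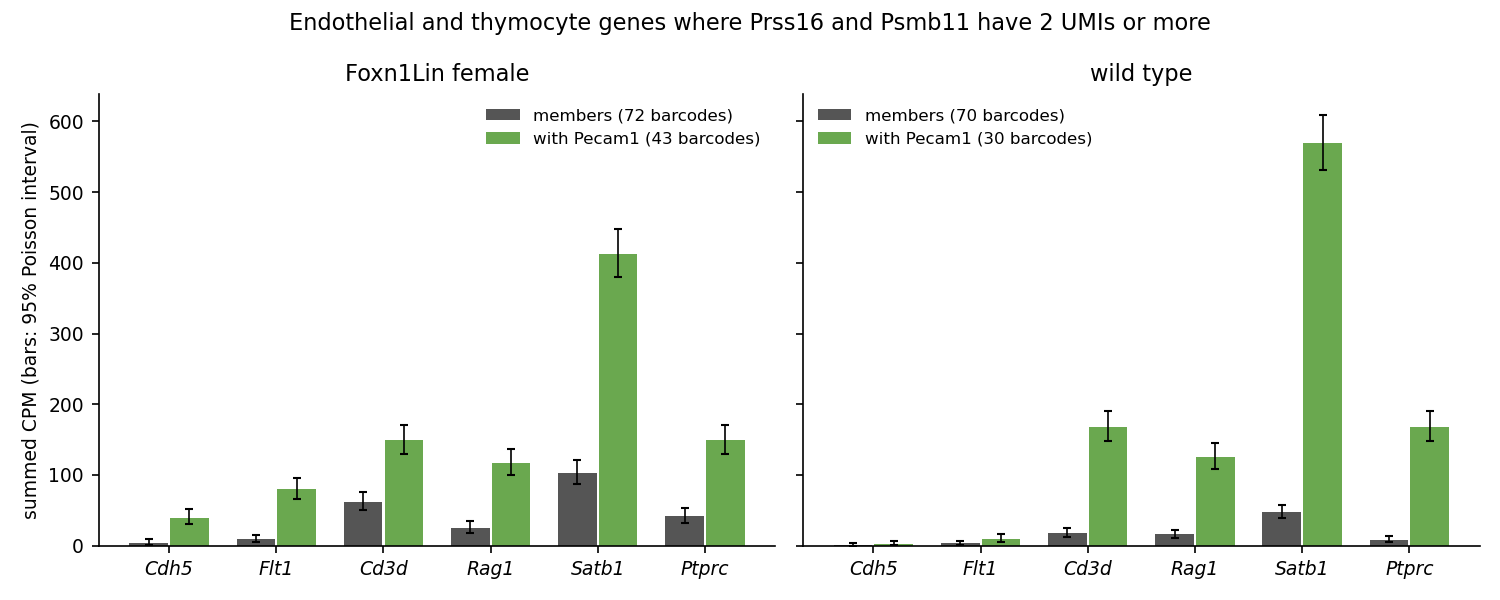
Summed CPM of 2 endothelial genes (Cdh5, Flt1) and 4 lymphoid genes (Cd3d, Rag1, Satb1, Ptprc) in members and in barcodes that passed the Prss16 and Psmb11 minimums but held Pecam1, for 2 libraries, with exact 95% Poisson intervals that cover counting error only. In the wild type library Satb1 stands at 569 CPM with Pecam1 and 47.5 CPM in members, while Cdh5 stays at 2.76 CPM or below in both.

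The reporter was read as transcripts of tdT-WPRE. After thinning to 2000 UMIs it was present in 76.4% of Foxn1Lin female members (55 of 72, 95% Clopper-Pearson interval 64.9% to 85.6%) and 100% of Foxn1Lin male members (10 of 10, 69.2% to 100%), and in 0 of 67 wild type members, which allows a share of up to 4.48%. Without thinning 97.2% of Foxn1Lin female members held it. In fibroblast barcodes, which should lack it, the shares were 4.20% and 4.66%, and in endothelial barcodes 9.40% and 10.3%, at lower median depths (4833 to 9579 UMIs). The members therefore stood above this background in both Foxn1Lin libraries. Other Epcam barcodes were positive in 60.4% and 77.4%, Aire barcodes in 48.3% and 57.3% and Ccl21a barcodes in 84.1% and 86.2%, and the intervals of members and Ccl21a barcodes overlapped. The reporter's summed level was 1302 and 2086 CPM in members and 740 and 1221 CPM in other Epcam barcodes.

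**Figure D5:**
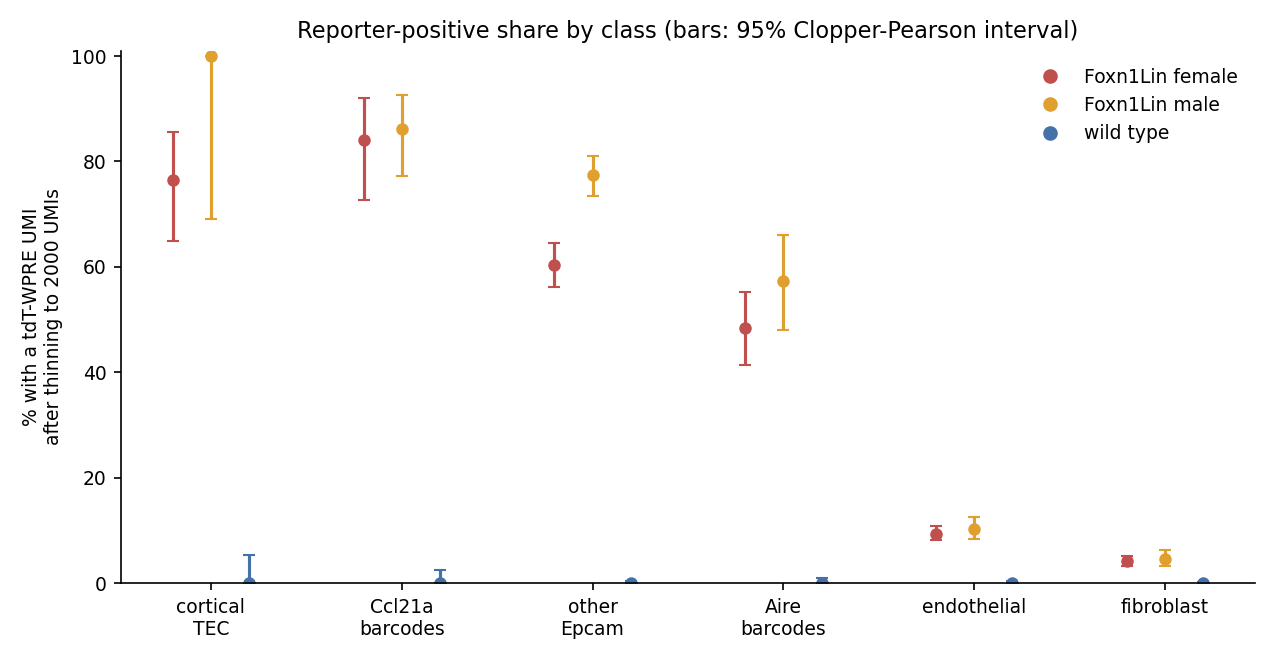
Percent of barcodes with a tdT-WPRE UMI after thinning to 2000 UMIs, by class and library, with 95% Clopper-Pearson intervals that cover counting error only. Cortical TECs lie at 76.4% and 100% in the Foxn1Lin libraries, all wild type classes at 0, and fibroblast barcodes at 4.20% and 4.66%.

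Between the Foxn1Lin female and wild type members, 3834 genes had at least 100 UMIs in the sum of both and a UMI in at least 0.5 of the members of each library, and 119 of them differed at least 2-fold, 39 higher in the Foxn1Lin female and 80 in the wild type members. Krt17, a keratin of basal and stressed epithelium, was at 1481 CPM (exact 95% Poisson interval 1420 to 1545) in the Foxn1Lin female and 496 CPM (466 to 528) in the wild type members. The median member was at 620 CPM (Foxn1Lin female) and 348 CPM (wild type), a smaller difference than that of the sums. The 3 members with most Krt17 held 35.1% of its UMIs in the Foxn1Lin female and 18.8% in the wild type library. Pax9 went the other way, at 99.2 CPM (83.9 to 117) and 243 CPM (222 to 265), with 31.8% and 25.8% of its UMIs in the top 3 members. In the other Epcam barcodes the log2 ratio of Foxn1Lin female to wild type was -1.39 for Pax9, against -1.29 in the members, and 0.84 for Krt17, against 1.58. The cortical genes of the gate and the main markers differed by less than 2-fold, and no test was made, since sex, genotype and library cannot be told apart.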

How the data were processed

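Single-cell 3′ RNA libraries of CD45- thymic stroma from 20-month-old mice were examined, 1 library per group. The authors aligned and counted the reads with Cell Ranger (version 7.01 in the submitters' processing notes, with builds GRCm38.p5 and mm10), and the deposited values are raw UMI counts per gene and barcode, as called and uncalled matrices. The called libraries held 53366016, 33386621 and 61258534 UMIs. Gene positions are from GENCODE vM21 on GRCm38 and promoter windows from a RefSeq table of GRCm38.p6.

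Barcodes with more than 1000 genes and under 20% mitochondrial UMIs were kept. The members and gene lists were chosen with earlier results of these data known. Counts were summed per library and class and tested in edgeR 4.0.16 (R 4.3.3) with TMM scaling, edgeR's filter on low counts, library as a block and Benjamini-Hochberg adjustment over all tested genes. The 6 genes used to choose classes were left out of the adjustment, as was Ccl21a against Ccl21a barcodes. The procedure was tested on simulated data. The study ranked genes over single cells, which takes cells as replicates, and that test was not used. DESeq2 1.42.0, other gates, no block, no filter, thinning and leaving out each library were tried. Nothing in the labels shows separate cultures or animals behind each sample beyond pools of thymi. The p values thus measure only how the difference between classes varied across these 3 libraries, and this variation may be technical.

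Named genes were those of the lists and, in each direction, the 15 with the most extreme log2 fold change among called genes that moved alike in all 3 libraries and reached 50 CPM in the higher class of each library. Genes of the gate, transgenes and mitochondrial, ribosomal, hemoglobin and immunoglobulin genes were not ranked, nor were sex-linked marker genes. A few genes that met the rule are not reported here. Scrublet, run through scanpy 1.11.5, marked 0, 15 and 1 barcodes by its own threshold and so did not work. As an alternative, the 702 top-scoring barcodes (12 of them members) were left out, a number set by the expected doublet rate of 3.9% that the labels give, and the main values keep all barcodes. Levels per gene are not divided by length, since 3′ libraries count molecules. Shares carry exact binomial intervals and sums exact Poisson intervals. Barcodes were thinned to 2000 UMIs for shares, which left out 3 wild type members.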

Additional observations from a re-analysis of the deposited data

Results flagged for a closer look

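Psmb10, the beta2i proteasome subunit, was lower in the Foxn1Lin male members than in the other Epcam barcodes of that library, with a log2 ratio of summed CPM of -0.19, whereas it was higher in members of the Foxn1Lin female and wild type libraries. It was singled out because 1 library moved against the other two. The difference between libraries was not tested, as there is 1 library per group, and the Foxn1Lin male value rests on 10 members.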

How the results depend on the processing

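Against other Epcam barcodes, 1441 genes were higher, and DESeq2 gave 907, thinning to 2000 UMIs 461, the fit with no library block 494 and leaving out 1 library 697 to 2023, the highest without the Foxn1Lin male library. The 3116 lower genes became 1069 with thinning, 2053 with no block and 2244 to 3545 with 1 library left out. Against Aire barcodes leaving out 1 library gave 869 to 2327 higher and 2173 to 3552 lower, and against Ccl21a barcodes 135 to 700 and 271 to 880. The share of members among epithelial barcodes was 14.9% in the Foxn1Lin female library, 3.77% in the Foxn1Lin male and 7.87% in the wild type with a gate of 1 UMI. It was 0.599% in the Foxn1Lin male and 4.48% in the wild type with a gate of 4 UMIs, and 7.96% in the Foxn1Lin female with others taken at 1 Epcam UMI. Without the Aire, Pecam1 and Pdgfra limits, an alternative chosen after seeing the data, it was 20.8% in the Foxn1Lin female and 9.37% in the wild type library, and Zeb1 (0.28) and Hba-a1 (0.49) reversed. The reporter-positive share of Foxn1Lin female members was 55.6% at 2 or more UMIs, 97.2% not thinned and 90% with a gate of 4 UMIs. The cause of these moves was not tested, apart from fewer libraries or UMIs by construction. For the 176 called genes named here or listed, 2261 of 2610 alternative values kept direction and call, 347 lost the call and 2 reversed. No paired analysis was possible because the 3 groups share a single replicate number, so libraries could not be paired with each other. Within a library, members and others were paired by the library block. The Foxn1Lin male values rest on 10 members.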
